A study of Homo sapiens with 6 samples.

Results

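The epithelial-mesenchymal transition genes described here are 10 genes of T47D cells: the transcription factors SNAI1, SNAI2, TWIST1, ZEB1 and ZEB2, their zinc finger opponents OVOL1 and OVOL2, and the mesenchymal products VIM, FN1 and TAGLN. They were taken by symbol, and all 10 are among the 27968 gene entries of the deposited tables. T47D is a human luminal breast cancer cell line that is positive for the estrogen receptor. It was grown in RPMI medium with 10% fetal bovine serum and transfected by RNAiMAX, a lipid reagent, with an siRNA specific for HOTAIR-N, 1 form of HOTAIR, which is a long noncoding RNA, or with a control siRNA. Each siRNA had 3 libraries, which the series describes as independent transfections. RNA was taken at 48 h, and stranded total RNA libraries depleted of ribosomal RNA were sequenced. The comparison shows how the RNA levels of these genes differ after the HOTAIR-N siRNA. Each group carries 1 siRNA label, so the comparison is limited to these reagents in this line. In bulk RNA, fewer cells that express a gene and less RNA per cell cannot be told apart.

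The library totals were 31777001 to 35259407 expected counts with the HOTAIR-N siRNA and 35106084 to 36707169 with the control siRNA, so that 1 CPM, a scaled count per library, stood for 32.9 to 36.4 and 33.6 to 35.7 counts. HOTAIR, read as a whole gene, was lower in every library of its siRNA, at 34.7% of control (log2 fold change -1.53 ± 0.07, SE, edgeR adjusted p = 2.11e-09). The HOTAIR-N form was not measured on its own. Every log2 fold change here is HOTAIR-N siRNA over control siRNA, and every edgeR adjusted p is from the quasi-likelihood test with Benjamini-Hochberg adjustment over the 14919 genes that passed the filter on low counts. A gene was called changed at an adjusted p under 0.05. By that rule 71.1% of tested genes changed, 36.2% higher and 34.8% lower. Markers of the line were detected in both groups: KRT8 stood at 3555 ± 280 CPM with the HOTAIR-N siRNA and 3815 ± 325 CPM with the control siRNA (SD, n = 3 each). ESR1, the estrogen receptor, stood at 92.97 ± 6.53 and 289.5 ± 9.73 CPM in the same order, a fall to 32.1% of control (edgeR adjusted p = 1.94e-10). Of 10 markers of T47D, all tested, 6 fell, 2 rose and 2 were not called, which is 80% called against 71.1% of all tested genes.

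In an epithelial-mesenchymal transition, cells lose junctions and polarity and gain a motile, matrix-producing state. SNAI1, SNAI2, TWIST1, ZEB1 and ZEB2 are transcription factors that promote this change, in large part by repressing the E-cadherin gene CDH1 at E-box motifs, while OVOL1 and OVOL2 repress ZEB1 and hold cells in the epithelial state. ZEB1 and ZEB2 and the miR-200 microRNAs repress each other. Luminal breast cancer lines such as T47D usually keep an epithelial form.

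The 10 genes did not move as a block. Of the 7 that were tested, OVOL1, VIM and TAGLN rose and TWIST1, OVOL2 and FN1 fell, while SNAI1 was not called (edgeR adjusted p = 0.88). This is 6 of 7, or 85.7%, against 71.1% of all tested genes, and the 7 tested genes had a median log2 fold change of -0.03 against 0.02 over all tested genes. The 3 libraries of one siRNA did not overlap those of the other in 6 of the 7 genes, which was also so for 73.4% of tested genes. SNAI2, ZEB1 and ZEB2 had too few counts to be tested. VIM passed the filter only through its counts in the HOTAIR-N siRNA libraries.

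**Figure D1:**
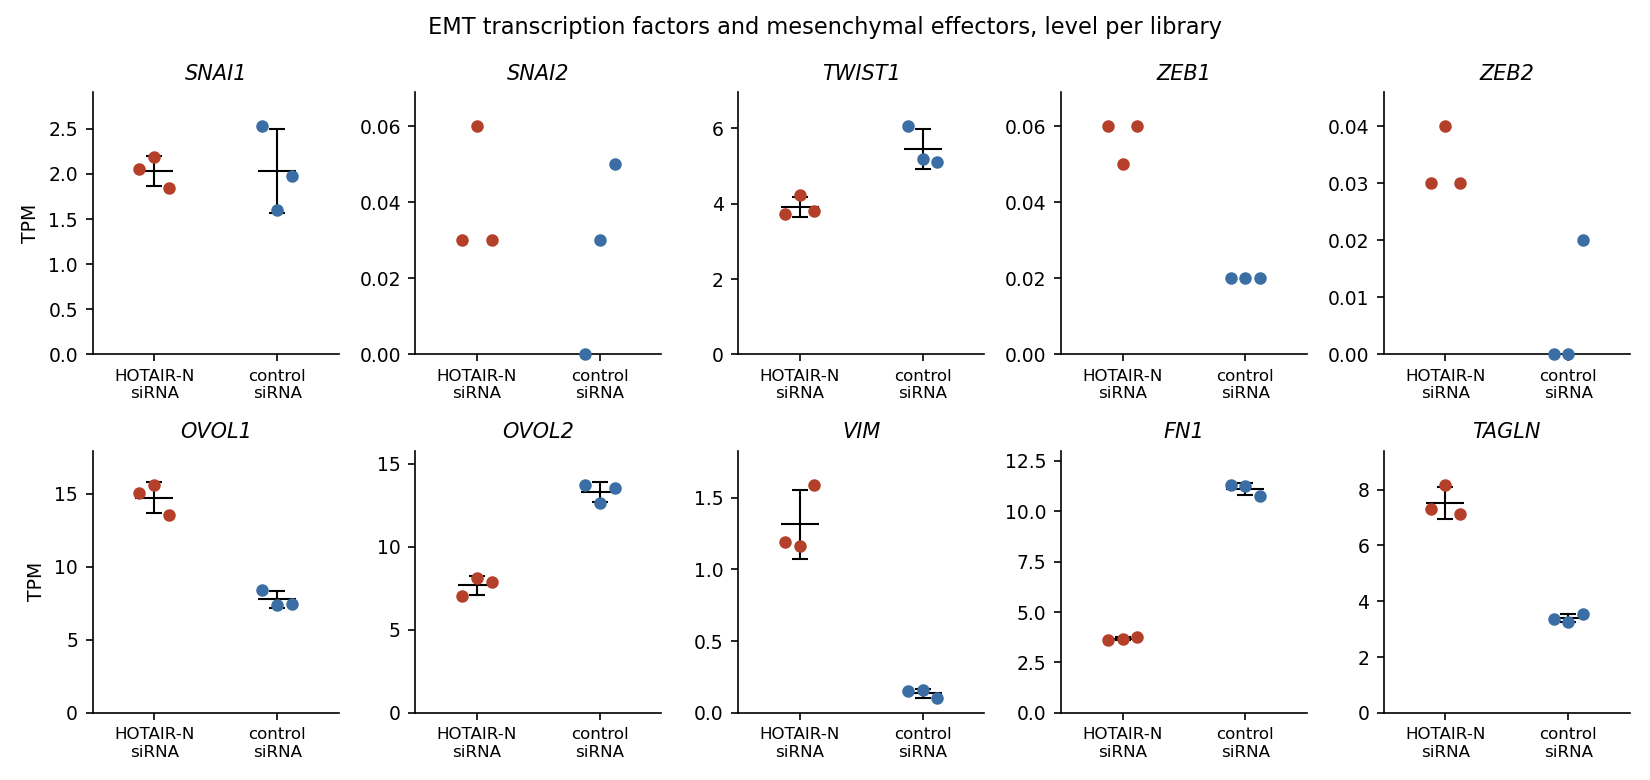
Level in TPM of the 10 genes in each library, HOTAIR-N siRNA on the left of each panel and control siRNA on the right, each panel with its own axis from 0. Points are libraries, and bars give the mean and SD of 3 libraries for the 7 tested genes. VIM and FN1 lie far apart between the siRNAs in opposite directions, and the SNAI1 libraries overlap.

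Levels can be compared between genes in TPM, which are scaled to transcript length. With the HOTAIR-N siRNA the order of mean TPM was OVOL1, OVOL2, TAGLN, TWIST1, FN1, SNAI1 and VIM, from 14.7 to 1.31 TPM. The libraries of OVOL2 and TAGLN overlapped in this order, as did those of TWIST1 and FN1. With the control siRNA the order was OVOL2, FN1, OVOL1, TWIST1, TAGLN, SNAI1 and VIM, from 13.3 to 0.137 TPM, and no neighbouring pair overlapped. ZEB1, ZEB2 and SNAI2 lay at or below 0.06 TPM in every library.

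**Figure D2:**
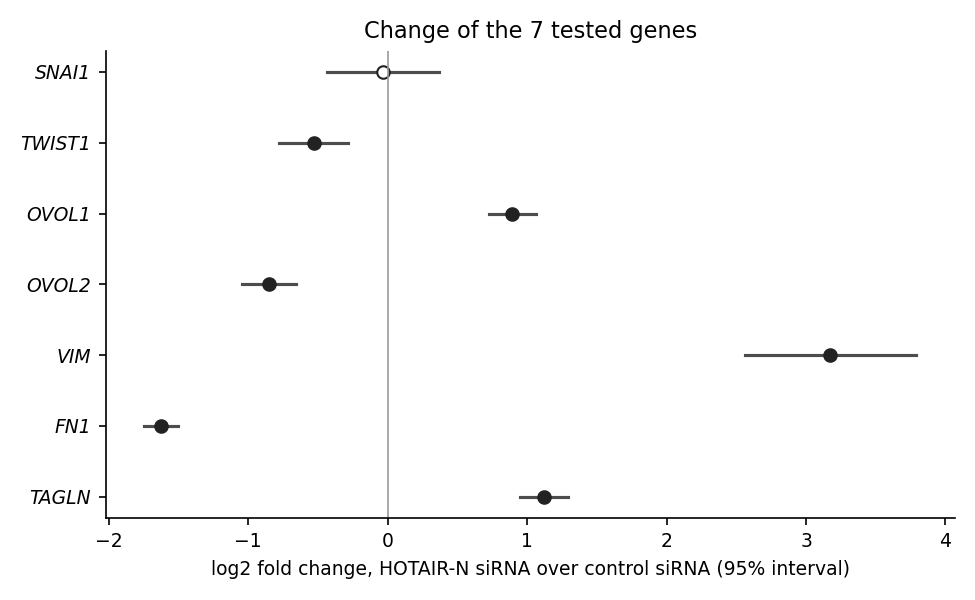
Log2 fold change, HOTAIR-N siRNA over control siRNA, of the 7 tested genes, with 95% confidence intervals; filled points are called and the open one is not. VIM reaches 3.17 and FN1 -1.63, and the SNAI1 interval spans 0.

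Among the factors that promote the transition, TWIST1 fell and SNAI1 showed no call. SNAI1, a zinc finger repressor of CDH1, was at 2.06, 2.19 and 1.85 TPM in HOTAIR-N siRNA replicates 1, 2 and 3, against 2.53, 1.60 and 1.98 TPM in those of the control siRNA. The groups overlapped, and control replicate 1 was the highest of the 6 libraries. The log2 fold change was -0.03 with a 95% interval of -0.43 to 0.37, so a change of SNAI1 within these bounds is compatible with its 45 to 75 counts per library. Its relative SNAI3 was also not called, at 0.801 ± 0.272 CPM with the HOTAIR-N siRNA and 0.843 ± 0.130 CPM with the control siRNA (SD, n = 3 each, edgeR adjusted p = 0.804). The sign of the fold change of both genes turned when libraries were scaled by their totals, and that of SNAI1 also with the upper quartile.

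TWIST1, a basic helix-loop-helix factor, was at 3.73, 4.23 and 3.80 TPM with the HOTAIR-N siRNA, against 6.06, 5.18 and 5.12 TPM with the control siRNA. Every HOTAIR-N siRNA library lay below every control library. This is 69.3% of control, with a log2 fold change of -0.53 ± 0.11 (SE, edgeR adjusted p = 0.00116). TWIST2, its paralog, had 0 counts in all 6 libraries.

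SNAI2, also called Slug, was close to absent in these libraries. It had 1, 2 and 1 counts with the HOTAIR-N siRNA and 0, 1 and 2 with the control siRNA. The ratio of the summed counts, corrected for library size, was 1.43 with an exact 95% counting interval of 0.242 to 9.77. Such intervals cover counting error only, since PCR reads without molecular identifiers are not independent molecules.

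ZEB1 and ZEB2, the zinc finger homeobox factors that repress CDH1 and the miR-200 genes, had few counts in every library. ZEB1 had 7, 5 and 6 counts with the HOTAIR-N siRNA, against 2, 2 and 2.03 with the control siRNA. ZEB2 had 5, 7 and 5 counts with the HOTAIR-N siRNA, against 0, 0 and 3 with the control siRNA. Neither gene overlapped between the siRNAs, at levels of 0.05 to 0.06 TPM against 0.02 TPM for ZEB1 and of 0.03 to 0.04 TPM against 0 to 0.02 TPM for ZEB2. The ratio of summed counts was 3.22 for ZEB1, with an exact 95% counting interval of 1.23 to 9.91. It was 6.08 for ZEB2, with an interval of 1.76 to 32.4 that rests on 3 counts in the control siRNA libraries. Without the filter, edgeR gave an adjusted p of 0.052 for ZEB1 and 0.0233 for ZEB2, so 1 of these 2 genes was called there. Both remained far below the level of OVOL1 or TWIST1 in every library. ZEB1-AS1, which overlaps ZEB1 on the other strand, had 48, 60 and 53 counts with the HOTAIR-N siRNA, against 29, 36 and 41.97 with the control siRNA, a 1.51-fold rise (edgeR adjusted p = 0.0186). No source used here states whether reads were counted by strand. In control siRNA replicate 3 the counts of 2.03 and 41.97 add up to a whole number, as they would if reads were divided between ZEB1 and ZEB1-AS1. The few ZEB1 counts therefore cannot be told apart from those of its antisense partner where the genes overlap. ZEB2-AS1 had 0 counts in every library.

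MicroRNAs known to restrain ZEB1 and ZEB2 are shown here with their seeds, bases 2 to 8, in capitals, because the seeds of the miR-200 family match sites in both ZEB transcripts. Mature sequences are those of RefSeq, written 5′ to 3′. The first group shares the seed AAUACUG.
miR-200b-3p: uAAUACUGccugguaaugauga
miR-200c-3p: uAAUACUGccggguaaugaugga
miR-429: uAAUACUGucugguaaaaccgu
The second group, which differs in the seed, shares AACACUG.
miR-200a-3p: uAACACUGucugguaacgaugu
miR-141-3p: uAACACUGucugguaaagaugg
miR-205-5p, which is also known to act on the ZEB genes, has a seed of its own, for which no matches were counted.
miR-205-5p: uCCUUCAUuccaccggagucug

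The longest GENCODE v29 3′ UTR of ZEB1, 2549 bases, holds the complement of the first seed, CAGTATT, 6 times and that of the second seed, CAGTGTT, 3 times. For ZEB2, with 5370 bases, the counts were 5 and 4. Only the transcript strand was searched, and the motifs do not overlap each other. Of the other 8 genes, FN1 holds CAGTATT 2 times and SNAI2 1 time, and the rest hold neither. Over 19132 annotated 3′ UTRs, 16% hold CAGTATT at least once and 18.3% hold CAGTGTT. Among UTRs of 0.8 to 1.25 times the length of ZEB1, 26.4% hold CAGTATT, and among those of like length to ZEB2, 46.5%. A pair of matches from each gene is given with the match in capitals, as DNA in the direction of the transcript.
ZEB1 first match: attgttttatcttatCAGTATTa
ZEB1 second match: atgctaaatccgcttCAGTATTt
ZEB2 first match: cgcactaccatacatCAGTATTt
ZEB2 second match: cgcactacaatgcatCAGTATTa
A match is a description of the sequence and not a measured binding site.

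The mature microRNAs were not measured in these libraries, and the hairpin entries MIR200A, MIR200B, MIR200C, MIR141, MIR429 and MIR205 had 0 counts throughout. Longer host transcripts were followed for miR-205, miR-200c and miR-141 only, and none for miR-200a, miR-200b and miR-429. MIR205HG, the host of miR-205, had 74, 75 and 80 counts with the HOTAIR-N siRNA, against 45, 33 and 45 with the control siRNA. It rose 1.87-fold without overlap between the siRNAs (edgeR adjusted p = 0.000329). MIR200CHG, the host of miR-200c and miR-141, had 35, 26 and 22 counts with the HOTAIR-N siRNA, against 21, 14 and 20 with the control siRNA. Its libraries did not overlap, and it was called narrowly at 1.51-fold (edgeR adjusted p = 0.0473), a call lost with DESeq2 size factors (adjusted p = 0.0503). Counts of ZEB1, ZEB2 and both host transcripts were all low, and for each of them the HOTAIR-N siRNA libraries lay above the control libraries. Among all tested genes 73.4% did not overlap between the siRNAs, in either direction. ZEB1 and ZEB2 were not among the tested genes, for which alone that share was taken.

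The OVOL genes moved in opposite directions. OVOL1 was at 15.03, 15.63 and 13.54 TPM with the HOTAIR-N siRNA, against 8.44, 7.42 and 7.45 TPM with the control siRNA. It rose 1.86-fold, with a log2 fold change of 0.89 ± 0.08 (SE, edgeR adjusted p = 6.27e-07). OVOL2 was at 7.03, 8.11 and 7.88 TPM with the HOTAIR-N siRNA, against 13.74, 12.62 and 13.57 TPM with the control siRNA. It fell to 55.3% of control, with a log2 fold change of -0.85 ± 0.09 (SE, edgeR adjusted p = 3.02e-06). The siRNA groups did not overlap for either gene.

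Because TPM are scaled to length, the paralogs can be set against each other within a library. The ratio of OVOL1 to OVOL2 was 2.14, 1.93 and 1.72 with the HOTAIR-N siRNA, against 0.614, 0.588 and 0.549 with the control siRNA. OVOL1 was thus the more abundant paralog in every HOTAIR-N siRNA library and the less abundant one in every control library. The two-sided exact permutation p was 0.1, the smallest that 3 against 3 libraries can give, and 0.2 after adjustment over the 2 quantities tested. The sum of both genes was 22.4 ± 1.2 TPM with the HOTAIR-N siRNA and 21.1 ± 1.07 TPM with the control siRNA (SD, n = 3 each), with overlapping libraries (exact permutation p = 0.3). A p that misses the threshold does not show that the sums were equal.

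**Figure D3:**
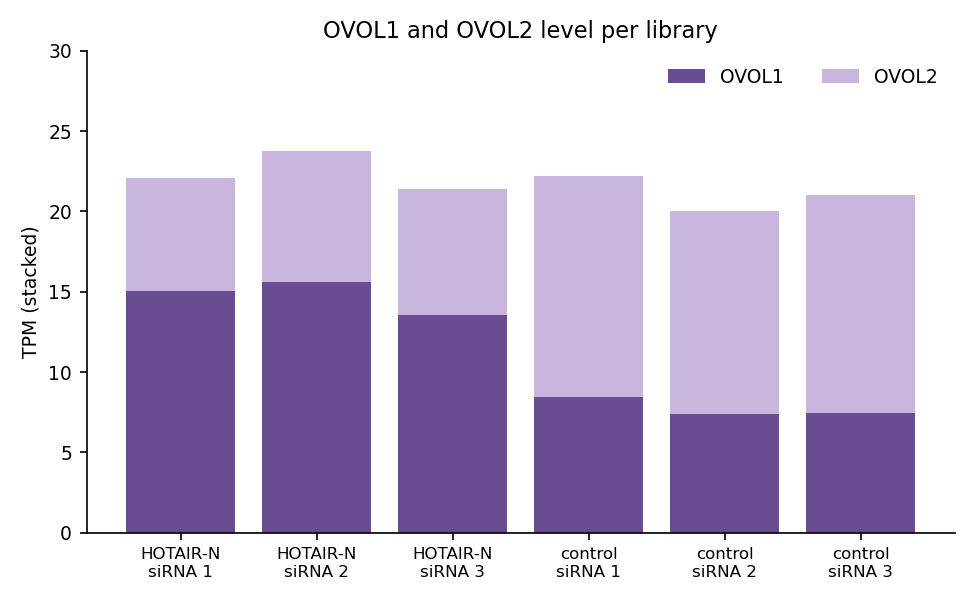
Stacked bars of the OVOL1 level (dark) and the OVOL2 level (light) in TPM, 1 bar per library, with the 3 HOTAIR-N siRNA libraries left of the 3 control siRNA libraries. OVOL1 takes the larger portion of each HOTAIR-N siRNA bar and OVOL2 that of each control bar, while bar heights overlap between the siRNAs.

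Of the OVOL2 transcripts, 2 were tested and 1 was called. NM_021220, of 1560 bases, fell (log2 fold change -1.23 ± 0.28, SE, edgeR adjusted p over transcripts = 0.0219), and NM_001303462, of 1100 bases, had a log2 fold change of -0.69 ± 0.31 (SE, adjusted p = 0.16). A further form, NM_001303461, had too few counts for a test, at 26.83, 0 and 20.11 counts with the HOTAIR-N siRNA and 0 in every control library. Counts of these forms are estimates that divide shared reads. OVOL1-AS1, an antisense gene overlapping OVOL1, had 3, 5 and 3 counts with the HOTAIR-N siRNA and 2, 1 and 0 with the control siRNA. OVOL2 overlaps no gene in RefSeq.

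Other factors of the epithelial program went both ways. Of 14 such genes, which hold epithelial transcription factors and splicing regulators, all were tested: 8 rose, 4 fell and 2 were not called, which is 85.7% called against 71.1% of all tested genes, with a median log2 fold change of 0.40. GRHL2, a grainyhead factor that maintains epithelial junction genes, fell to 55.4% of control, at 187 ± 2.15 CPM with the HOTAIR-N siRNA and 338 ± 3.06 CPM with the control siRNA (SD, n = 3 each, edgeR adjusted p = 1.41e-09). Its paralog GRHL3 rose 3.96-fold, at 18.7 ± 0.786 and 4.71 ± 0.748 CPM in the same order (edgeR adjusted p = 4.1e-09). The ETS factors ELF5 and EHF rose 1.71-fold and 1.40-fold (edgeR adjusted p = 2.5e-08 and 6.54e-06). ESRP2, an epithelial splicing regulator, fell to 80.4% of control (edgeR adjusted p = 3.69e-05). ESRP1, its paralog, was not called (edgeR adjusted p = 0.515), though another scaling of the libraries called it.

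CDH1, which encodes E-cadherin and is the textbook target of SNAI1, TWIST1 and the ZEB factors, was at 580 ± 17.1 CPM with the HOTAIR-N siRNA and 312 ± 4.5 CPM with the control siRNA (SD, n = 3 each). It rose 1.86-fold without overlap (log2 fold change 0.90, edgeR adjusted p = 1.03e-09). Other epithelial junction and keratin genes went both ways. Of 35 epithelial products, all tested, 16 rose, 11 fell and 8 were not called, with a median log2 fold change of 0.06. This is 77.1% called against 71.1% of all tested genes. CLDN1, a claudin of tight junctions, fell to 33.2% of control, at 289 ± 20.9 CPM with the HOTAIR-N siRNA and 870 ± 49.8 CPM with the control siRNA (SD, n = 3 each, edgeR adjusted p = 3.3e-10). The keratin KRT18 and the trafficking GTPase RAB25 fell to 65.8% and 64.4% of control (edgeR adjusted p = 6.75e-08 and 7.08e-08). KRT8 and KRT19 were not called (edgeR adjusted p = 0.166 and 0.379).

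Of the mesenchymal products, VIM and TAGLN rose and FN1 fell. VIM encodes vimentin, the intermediate filament of mesenchymal cells. It had 47, 41 and 59 counts with the HOTAIR-N siRNA, against 6, 6 and 4 with the control siRNA, which are 1.19, 1.16 and 1.59 TPM against 0.15, 0.16 and 0.10 TPM. All HOTAIR-N siRNA libraries lay above all control libraries. The rise was 9.03-fold (log2 fold change 3.17, 95% interval 2.56 to 3.79, edgeR adjusted p = 7.59e-07), rank 99 by size of fold change among the 14919 tested genes. Its level with the HOTAIR-N siRNA was still the lowest of the 7 tested genes. VIM-AS1, which overlaps VIM, had 1, 0 and 1 counts with the HOTAIR-N siRNA and 1 in each control library. Of 6 relatives of vimentin among intermediate filament genes, 3 were tested and none was called: NES, PRPH and SYNM had log2 fold changes of -0.14, -0.04 and -0.01, and those of PRPH and SYNM turned sign under another scaling.

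FN1 encodes fibronectin, a matrix glycoprotein that cells bind through integrins. It was at 3.60, 3.65 and 3.76 TPM with the HOTAIR-N siRNA, against 11.32, 11.26 and 10.76 TPM with the control siRNA. The libraries of each siRNA lay close together and the groups were far apart. FN1 fell to 32.4% of control, with a log2 fold change of -1.63 ± 0.06 (SE, edgeR adjusted p = 2.42e-10), at 532 to 584 counts per library against 1689 to 1808. ATIC, a purine synthesis gene that overlaps FN1 in RefSeq, was not called (log2 fold change 0.07, edgeR adjusted p = 0.182).

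The deposited transcript tables split FN1 into 10 forms, of which 6 had counts and 5 were tested. Across all transcripts of the series 32% were called, and of the 12 tested transcripts of the 10 genes, 3 were higher and 4 lower, 7 in all, against 4 without control siRNA replicate 1. The most abundant FN1 form, NM_002026, of 8449 bases, had 323 ± 36 counts with the HOTAIR-N siRNA and 1191 ± 154 with the control siRNA (SD, n = 3 each). It fell, with a log2 fold change of -1.87 ± 0.14 (SE, edgeR adjusted p over transcripts = 0.000341). NM_212476 fell too (log2 fold change -1.43 ± 0.40, SE, adjusted p = 0.0415). NM_212482, the longest of the 5 tested forms at 8815 bases, had 101 ± 4.29 counts with the HOTAIR-N siRNA and 160.5 ± 39.3 with the control siRNA (SD, n = 3 each) and was not called (adjusted p = 0.0739). NM_212478 and NM_212474 were not called either (adjusted p = 0.692 and 0.355).

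The share of FN1 assigned to NM_212482 was 15.99%, 19.08% and 16.80% with the HOTAIR-N siRNA, against 10.55%, 6.79% and 9.03% with the control siRNA. The shares did not overlap, but the two-sided exact permutation p of 0.1 is the smallest 3 against 3 libraries allow, and it was 0.7 after adjustment over the 7 transcript shares tested. NM_002026 took 57.5 ± 3.72% with the HOTAIR-N siRNA and 68.6 ± 11% with the control siRNA (SD, n = 3 each), with overlapping libraries. These forms share most of their exons, and their counts are estimates that divide shared reads.

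**Figure D4:**
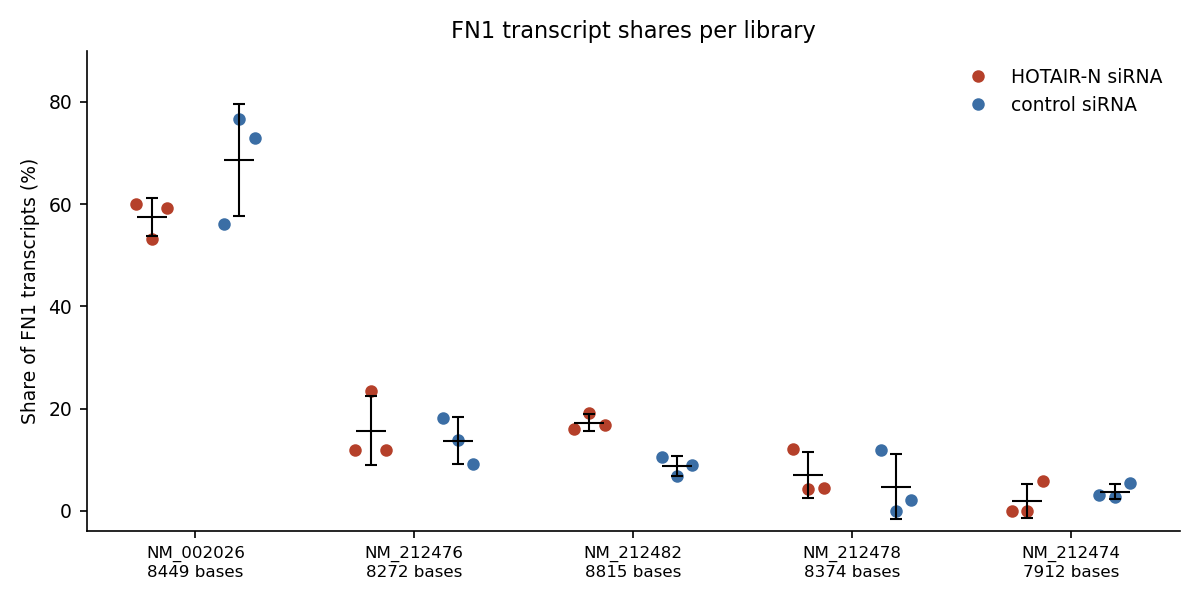
Deposited share of FN1, in percent, of each of the 5 tested FN1 transcripts, HOTAIR-N siRNA left of control siRNA. Points are libraries and bars give the mean and SD of 3 libraries; NM_002026 holds the largest share in every library, and NM_212482 has its 3 highest shares in the HOTAIR-N siRNA libraries.

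Of 10 genes for receptors that bind fibronectin 7 were tested, of which 5 rose and 2 fell. All 7 were called, or 100%, where 71.1% of all tested genes were, and their median log2 fold change was 0.47. ITGB1, the common beta subunit of the fibronectin integrins, fell to 59.7% of control, at 277 ± 13.4 CPM with the HOTAIR-N siRNA and 464 ± 28.9 CPM with the control siRNA (SD, n = 3 each, edgeR adjusted p = 7.87e-08). ITGA5, its classical fibronectin-binding partner, rose 1.43-fold (edgeR adjusted p = 0.000223). ITGB6 and ITGB8, which pair with ITGAV, rose 4.27-fold and 3.95-fold (edgeR adjusted p = 2.18e-09 and 7.36e-07), and ITGAV rose 1.38-fold (edgeR adjusted p = 1e-05).

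The starts of VIM and FN1 are shown because these mesenchymal products moved in opposite directions. Each run gives the 250 bases before the annotated start, from RefSeq on GRCh38.p14, in the direction of the gene. Capitals mark the cAMP response element TGACGTCA and the CCAAT box. VIM lies at chr10:17227991-17228240 on the plus strand, with 46% G or C, and FN1 at chr2:215436069-215436318 on the minus strand, with 76.4%, against a median of 58% over 27305 promoters.
VIM: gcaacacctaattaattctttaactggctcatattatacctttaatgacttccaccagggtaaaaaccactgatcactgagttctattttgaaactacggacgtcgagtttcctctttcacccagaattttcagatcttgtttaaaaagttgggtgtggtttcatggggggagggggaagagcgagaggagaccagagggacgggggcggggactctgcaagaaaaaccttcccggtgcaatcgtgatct
FN1: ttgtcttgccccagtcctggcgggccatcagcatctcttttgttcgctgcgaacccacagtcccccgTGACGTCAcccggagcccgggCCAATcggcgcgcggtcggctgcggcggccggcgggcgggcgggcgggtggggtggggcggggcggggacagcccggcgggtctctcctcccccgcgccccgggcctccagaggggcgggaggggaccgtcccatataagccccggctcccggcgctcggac
Motifs were searched on both strands. The FN1 run holds TGACGTCA, found in 1.77% of promoters, and CCAAT, found in 33%. Neither run holds the E-box CACCTG (17.5% of promoters) or the AP-1 motif TGANTCA (6.6%), and the VIM run holds none of the 4. No match says only that these letters are not in the window.

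TAGLN encodes transgelin, or SM22, an actin-binding protein of smooth muscle and activated fibroblasts. It was at 7.30, 8.18 and 7.12 TPM with the HOTAIR-N siRNA, against 3.35, 3.27 and 3.54 TPM with the control siRNA. The groups did not overlap. TAGLN rose 2.18-fold, with a log2 fold change of 1.12 ± 0.08 (SE, edgeR adjusted p = 8.72e-08). Its counts were not whole numbers, at 583.89, 586.37 and 534.52 with the HOTAIR-N siRNA against 265.12, 245.13 and 277.35 with the control siRNA, so some reads were shared with another entry. PCSK7, a protease gene that overlaps TAGLN on the opposite strand, stood at 81.2 ± 2.3 CPM with the HOTAIR-N siRNA and 86.8 ± 4.94 CPM with the control siRNA (SD, n = 3 each) and was not called (edgeR adjusted p = 0.127). All TAGLN counts were assigned to NM_001001522, of 4260 bases, and 0 to NM_003186, of 3863 bases. PCSK7 had 2955.11, 2747.63 and 2727.48 counts with the HOTAIR-N siRNA, against 3189.88, 2722.87 and 3138.65 with the control siRNA. In each library the counts of TAGLN and PCSK7 add up to a whole number, so reads were divided between these genes of opposite strands. No strand setting is stated, and the TAGLN level rests on an estimated split and is uncertain. The share of TAGLN reads that came from PCSK7 was not tested.

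The paralog TAGLN2 went the other way and was far more abundant: it was at 368.5 ± 7.88 CPM with the HOTAIR-N siRNA and 574 ± 14.1 CPM with the control siRNA (SD, n = 3 each), 64.2% of control (edgeR adjusted p = 1.65e-08). Contractile genes and their regulators around serum response factor were split too. Of 19 such genes 15 were tested, of which 6 rose, 5 fell and 4 were not called, with a median log2 fold change of -0.04. This is 73.3% called, near the 71.1% of all tested genes. ACTA2, the smooth muscle actin that often marks activated fibroblasts together with TAGLN, rose 3.81-fold, at 62.2 ± 3.41 CPM with the HOTAIR-N siRNA and 16.3 ± 1.03 CPM with the control siRNA (SD, n = 3 each, edgeR adjusted p = 2.58e-10). FAS, a death receptor gene that overlaps ACTA2 on the opposite strand, rose 1.51-fold at 68.9 ± 3.82 and 45.8 ± 3.95 CPM in the same order (edgeR adjusted p = 7.51e-06), and its part in the ACTA2 counts was not tested. CNN2, an actin-binding calponin, fell to 45.1% of control, and MKL2, a coactivator of serum response factor, to 48.4% (edgeR adjusted p = 2.06e-09 and 2.84e-09).

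Among 24 other transcription factors linked to the transition, falls were more numerous than rises. There were 17 tested: 10 of them fell, 4 rose and 3 had no call, with a median log2 fold change of -0.30 against 0.02 over all tested genes. This is 82.4% called, against 71.1% of all tested genes, where 34.8% fell and 36.2% rose. The fall of TWIST1 thus stood beside that of SOX9, an HMG-box factor, which fell to 32.8% of control, at 6.56 ± 0.0791 CPM with the HOTAIR-N siRNA and 19.99 ± 0.967 CPM with the control siRNA (SD, n = 3 each, edgeR adjusted p = 1.56e-09). LEF1, a partner of beta-catenin, fell to 35.3% of control (edgeR adjusted p = 6.38e-07). TCF4, a basic helix-loop-helix factor, rose 3.99-fold, at 5.1 ± 0.584 and 1.28 ± 0.187 CPM in the same order (edgeR adjusted p = 1.53e-07).

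**Figure D5:**
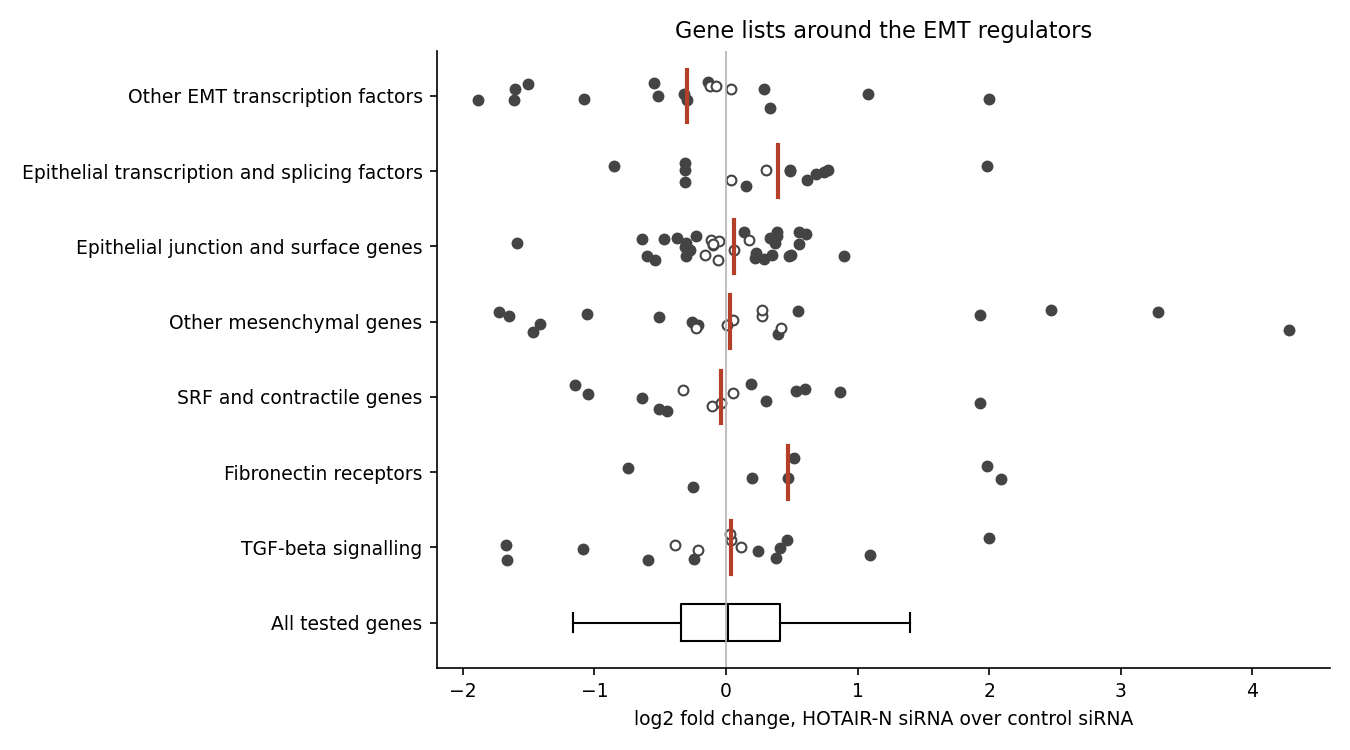
Log2 fold change, HOTAIR-N siRNA over control siRNA, of each tested gene in the related lists, filled where called and open where not, with the list's median as a red line. The lowest row gives the quartiles of all tested genes as a box, with whiskers at the 5th and 95th percentiles. Most lists hold genes on both sides of 0.

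Other mesenchymal products beside VIM, FN1 and TAGLN also went both ways. Of 33 genes 20 were tested, of which 6 rose, 8 fell and 6 were not called, which is 70% called, near the 71.1% of all tested genes. LUM, a small proteoglycan of the matrix, rose 19.4-fold, to 4.92 ± 0.195 CPM with the HOTAIR-N siRNA against 0.25 ± 0.023 CPM with the control siRNA (SD, n = 3 each, edgeR adjusted p = 6.87e-10). THY1, a surface glycoprotein, rose 9.74-fold, to 1.06 ± 0.0575 CPM against 0.106 ± 0.0175 CPM in the same order (edgeR adjusted p = 5.94e-07). CD44, a hyaluronan receptor, fell to 70.1% of control (edgeR adjusted p = 6.71e-07). CDH2, the N-cadherin often set against CDH1, had 2, 7 and 3 counts with the HOTAIR-N siRNA and 11, 12 and 11 with the control siRNA and fell (log2 fold change -1.47, edgeR adjusted p = 0.0105). Like VIM, LUM and THY1 passed the filter only through their counts in the HOTAIR-N siRNA libraries, with 9 counts or fewer in each control library, so their call is not independent of that filter. CDH2 passed it only through its counts in the control siRNA libraries, so the same limit holds for its fall.

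TGF-beta signalling is a known inducer of the transition, and its ligand genes moved in both directions. TGFB1 fell to 31.4% of control, while TGFB2 rose 4.01-fold and TGFB3 rose 2.14-fold (edgeR adjusted p = 2.5e-07, 3.27e-08 and 5.34e-09). LTBP1, which binds latent TGF-beta in the matrix, fell to 31.6% of control (edgeR adjusted p = 1.23e-10). SMAD3 and SMAD4, which carry the signal to the nucleus, were not called (edgeR adjusted p = 0.571 and 0.689). Of 17 genes in all 16 were tested, of which 6 rose, 5 fell and 5 were not called, with 68.8% called, near the 71.1% of all tested genes.

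Markers of other cell types were low beside KRT8. The sums for fibroblasts and leukocytes were nonetheless above VIM, which stood at 1.42 ± 0.255 CPM with the HOTAIR-N siRNA and 0.154 ± 0.0344 CPM with the control siRNA (SD, n = 3 each). The summed level of 10 fibroblast markers was 29.4 to 33.7 CPM with the HOTAIR-N siRNA and 28.2 to 32.3 CPM with the control siRNA, most of it COL1A1, at 24.6 ± 2.11 and 29.4 ± 2.19 CPM in the same order (SD, n = 3 each). COL1A1 was called lower with overlapping libraries (edgeR adjusted p = 0.00919), a call lost with library totals (edgeR adjusted p = 0.0862). Of the 10 markers 4 were tested, of which 2 rose and 2 fell, or 100% called against 71.1% of all tested genes. LUM and THY1, described above, are 2 of these 10 markers. COL3A1, also on the list, had 6, 8 and 11 counts with the HOTAIR-N siRNA and 32, 26 and 26 with the control siRNA. It fell to 30.2% of control (edgeR adjusted p = 0.000145), but it needed its control siRNA counts to pass the filter, so its call is not independent of that filter. FAP had 0 counts in all libraries, and PDGFRA had 2, 2 and 1 counts with the HOTAIR-N siRNA and 0, 2 and 0 with the control siRNA. The sum of 7 leukocyte markers was 3.97 to 4.96 CPM with the HOTAIR-N siRNA and 3.41 to 3.67 CPM with the control siRNA, and that of 5 endothelial markers 0.116 to 0.274 and 0.056 to 0.115 CPM in the same order. Most of the leukocyte sum was CD68, a lysosomal protein of macrophages that other cells also make, at 3.43 ± 0.394 CPM with the HOTAIR-N siRNA and 2.33 ± 0.113 CPM with the control siRNA (SD, n = 3 each), a 1.47-fold rise without overlap (edgeR adjusted p = 0.00221). PTPRC, the defining leukocyte marker, had 1, 0 and 0 counts with the HOTAIR-N siRNA and 2, 2 and 0 with the control siRNA. The part of these cell types in the rise of VIM was not tested.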

How the data were processed

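Expected counts per gene and per transcript are deposited with TPM, FPKM (not used) and, per transcript, the percent of its gene, per the file headers. The submitters' processing notes name STAR 2.6.0c, RSEM 1.3.0 and hg19; no source used here gives the strand setting. Deposited expected counts were rounded, filtered with filterByExpr (minimum count 10, minimum total 15), scaled by TMM and tested with edgeR 4.0.16 (R 4.3.3, quasi-likelihood, no covariates), with Benjamini-Hochberg adjustment over all genes or transcripts and a threshold of 0.05. TPM are used as deposited; CPM are TMM-scaled. Intervals for sums of counts are exact 95% counting intervals.

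The 10 genes, the other lists and the tests were chosen with earlier results of these data known. Named beside the 10 genes are HOTAIR, up to 4 genes of smallest p per list, up to 2 that were not called or went against their list, and paralogs, antisense or overlapping genes; ITGA5 and CDH2 were named after their values were seen. A few genes that meet this rule are not reported here. Gene IDs are symbols. Sequences came from RefSeq (GRCh38.p14; 4 of the 10 genes, VIM, FN1, ZEB1 and ZEB2, matched the promoter table) and GENCODE v29; no coordinates were carried to hg19. On simulated data, 91.5% of 200 planted changes among 14758 genes were recovered and 16 unplanted genes called. Far fewer genes changed there than the 71.1% called here, so the simulation does not check the scaling at such a share. Libraries of a group differed by more than sampling noise (chi-square 2.16 to 8.56 per degree of freedom) and were treated as separate replicates, as the series describes them. The larger values were those of control siRNA replicate 2 (8.46 and 8.56) and HOTAIR-N siRNA replicate 3 (6.64 and 7.36). The other pair of each group gave 2.16 and 2.3 in the same order. Alternatives used DESeq2 1.42.0, limma 3.58.1, other scalings and filters, the replicate number as a block, and left-out libraries.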

Additional observations from a re-analysis of the deposited data

How the results depend on the processing

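FN1 (log2 fold change -1.65 to -1.53), OVOL1 (0.85 to 0.99), OVOL2 (-0.91 to -0.76), TAGLN (1.06 to 1.22), TWIST1 (-0.58 to -0.43) and VIM (3.00 to 3.28) kept their direction and call under all 15 alternatives. SNAI1 was not called under any and turned positive with library totals (0.064), upper-quartile scaling (0.023), without HOTAIR-N siRNA replicate 3 (0.027) and without control siRNA replicate 1 (0.14); leaving out 1 library gave -0.18 to 0.14. Called among the 10 genes were 6 under each alternative except no filter, with 7, where ZEB2 was added. All genes called numbered 9906 to 11130. Library totals moved the median of all genes to 0.12 and gave 6480 higher and 4263 lower genes, against 5407 and 5198; the upper quartile gave 6009 and 4658. The replicate numbers do not pair the libraries (correlations of deviations -0.036, -0.21 and -0.12); with the replicate block 10010 genes and 6 of the 10 were called, and 4 of their transcripts against 7 without it. Leaving out 1 library gave 4 to 6 transcripts, 4 of them without control siRNA replicate 1; the cause was not tested. Called genes of the other lists numbered 97 to 108, against 103. With 3 libraries a group and few counts, changes of SNAI2, ZEB1 and ZEB2 were at the limit of detection.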
